A study of Mus musculus with 3 samples.

Results

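The Toll-like receptor and inflammasome genes described here are 10 genes of innate immune sensing, Tlr2, Tlr4, Tlr7, Cd14, Myd88, Nlrp3, Casp1, Casp4, Pycard and Gsdmd. They were found by gene symbol among the 32285 genes of the count matrices, and all 10 were present. The RNA came from single cells of the brains of male C57BL6J wild-type (WT) mice of 10 to 12 weeks, either naive or killed 24 h or 3 d after an experimental transient ischaemic attack (TIA), a 5 min occlusion of the middle cerebral artery. Each of the 3 conditions is 1 library made from the pooled cells of 3 mice, so that no replicate check of any difference was possible and no p-value is given. After TIA the ipsilateral hemisphere was used. White matter and meninges were removed, the tissue was digested with papain for 15 min, dead cells were depleted, and cells negative for propidium iodide were sorted.

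Called cells numbered 4804 in naive, 1619 at 24 h and 5505 at 3 d, and their unique molecular identifiers (UMIs, counted RNA molecules) 37987228, 12919691 and 48636436. Cells with at least 500 detected genes and at most 7% mitochondrial UMIs were kept, which left 4018, 1225 and 4781 cells with a median of 7750, 8123 and 7868 UMIs. Few cell barcodes occurred in more than 1 library: 3 in naive and 24 h, 8 in naive and 3 d, and 4 in 24 h and 3 d. For each cell class and library the UMIs of a gene were summed and scaled to CPM, the UMIs of the gene per 1e+06 UMIs of the class. Intervals are 95% intervals and cover counting error only, not the variation between mice or between libraries.

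Toll-like receptors recognise molecules of microbes and of damaged cells at the cell surface or in endosomes. All but Tlr3 among the mouse receptors can pass their signal through the adaptor Myd88 to the kinase cascade that activates NF-kappaB. Inflammasomes are cytosolic complexes in which a sensor such as Nlrp3 recruits the adaptor Pycard (ASC) and the protease Casp1, which matures the cytokines encoded by Il1b and Il18 and cleaves Gsdmd, the pore former of pyroptosis. Casp4, the mouse inflammatory caspase also called caspase-11, binds cytosolic lipopolysaccharide and cleaves Gsdmd as well. In the brain these genes are best known from microglia, the resident macrophages of the parenchyma.

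Cells were clustered over all 3 libraries and each cluster was named from fixed marker genes; a name therefore means "like" that type, and the suffix is left out except for the neuron-like cells. Microglia comprised 974 naive cells, 270 cells at 24 h and 1212 at 3 d, with 7770435, 2726840 and 10009288 UMIs. All 10 microglial markers were present there in every library, with a summed level of 24216 CPM in naive, 19834 at 24 h and 21042 at 3 d. Astrocytes (894, 239 and 1427 cells), endothelial cells (287, 229 and 591), neuron-like cells (795, 112 and 375), oligodendrocytes (232, 72 and 250) and pericytes (159, 182 and 327) were the other classes with at least 50 cells in each library. Another cluster carried all 9 markers of border-associated macrophages together with all 10 microglial markers, held only 34 cells at 24 h, and is described apart.

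Among the 6 classes, RNA of the 10 genes was found mainly in microglia in every library. In the naive library 9 of 10 genes had a CPM in microglia at least 2-fold that of each of the other 5 classes, against 12.8% of the 10913 genes with at least 30 microglial UMIs. The same held for 10 of 10 genes at 24 h, against 13.3% of all genes, and for 10 of 10 at 3 d, against 12.7%. Myd88, the adaptor, was the exception in naive: 26.3 CPM in microglia and 23.5 CPM in pericytes, a ratio of 1.12 with an interval of 0.681 to 1.96.

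Among the receptors, Tlr2, which senses bacterial lipopeptides, had 51.6 CPM in naive microglia and at most 2.87 CPM in the other 5 classes. Tlr7, the endosomal receptor of single-stranded RNA, had 186 CPM in naive microglia and 6.52 CPM in the next class, astrocytes. Cd14, the co-receptor that hands lipopolysaccharide to Tlr4, had 233 CPM in microglia and 9.67 CPM in pericytes. Outside microglia these 3 genes were thus more than 10-fold lower in naive. Tlr4, the lipopolysaccharide receptor, had a clearer second class, since pericytes held 15.2, 26.6 and 22.8 CPM in naive, 24 h and 3 d, against 91.1, 106 and 84.7 CPM in microglia. The microglial level of Tlr4 was 5.99-fold that of pericytes in naive and 3.71-fold at 3 d.

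Among the inflammasome genes, the sensor Nlrp3 had 101 CPM in naive microglia and 3.42 CPM in the next class, the neuron-like cells. Casp1 had 37.4 CPM in naive microglia and 1.37 CPM in the next class, again the neuron-like cells. Pycard had 266 CPM in naive microglia and 20.1 CPM in endothelial cells. The genes for the cytosolic lipopolysaccharide pathway also had a clearer second class. Casp4 had 64.6 CPM in microglia and 6.46 CPM in endothelial cells in naive, a 10.0-fold difference, and Gsdmd had 55.2 and 17.2 CPM, a 3.21-fold difference with an interval of 2.13 to 5.06.

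**Figure D1:**
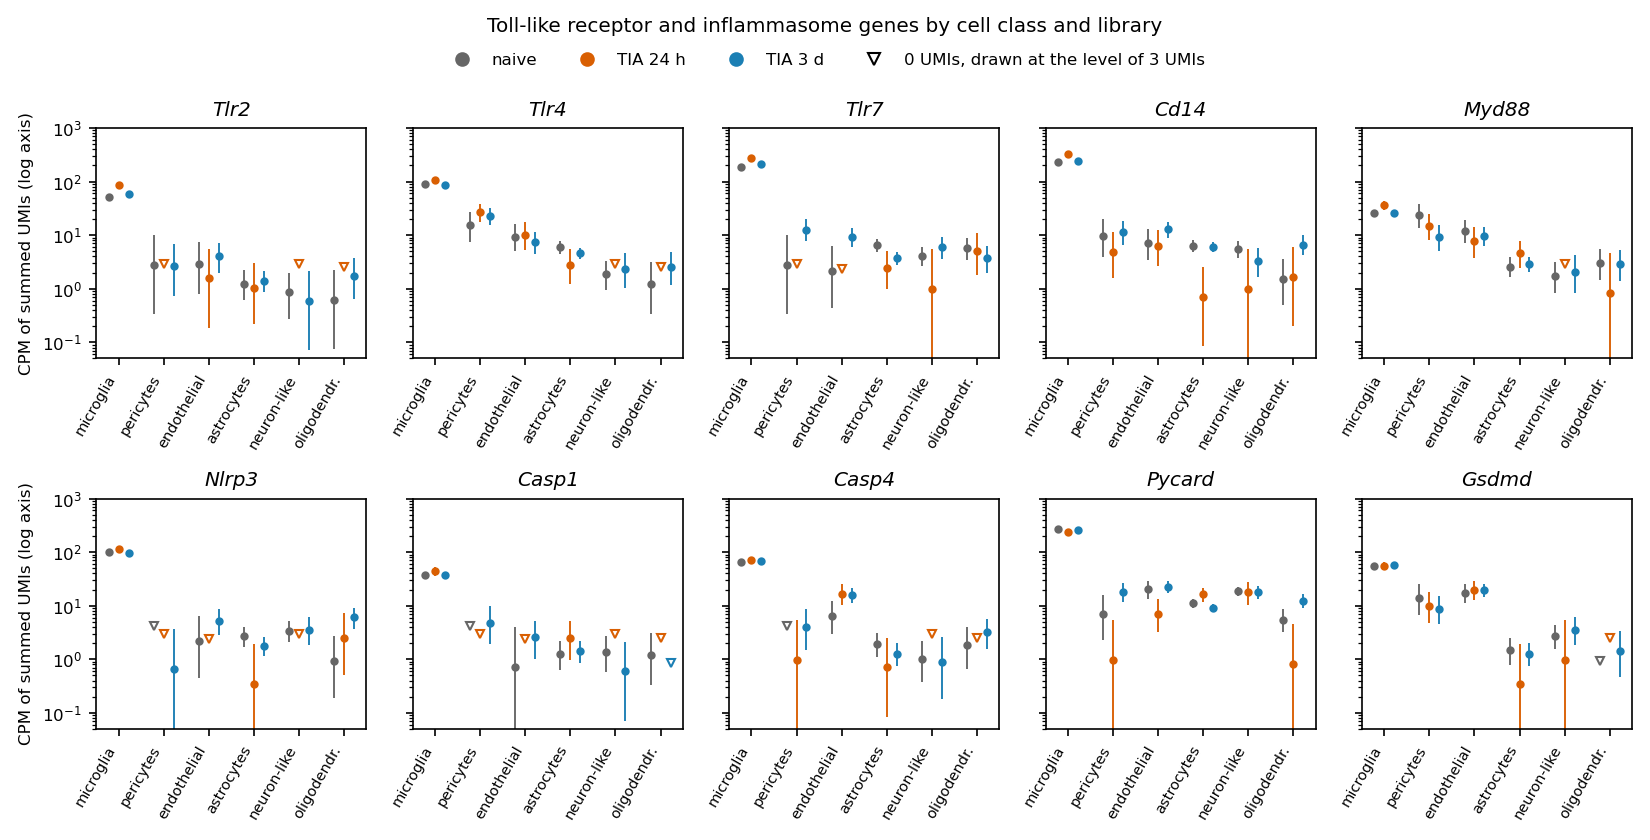
CPM of summed UMIs (log axis) of each of the 10 genes in 6 cell classes, with naive, 24 h and 3 d side by side and exact Poisson 95% intervals for counting error; open triangles stand at the level of 3 UMIs where a class had 0. Microglia lie highest for every gene, and the naive pericytes come closest for Myd88, at 23.5 against 26.3 CPM.

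At 24 h Tlr2, Tlr7, Cd14 and Myd88 were modestly higher in microglia than in naive, while Nlrp3, Casp1, Casp4, Pycard and Gsdmd lay nearer their naive level. None of the 10 genes differed 2-fold: 0 of 10 were at least 2-fold higher, against 2.39% of the 11515 genes with at least 30 UMIs over both libraries, and 0 of 10 were at least 2-fold lower, against 2.64%. The median log2 ratio of the 10 genes to naive was 0.22, beside 0.05 for all genes, and 9 of the 10 ratios lay above 0. The share of all genes above 0 is not given, so that count is not read as a result. No interval covers differences between mice, so these are differences between 1 library and another.

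Tlr2 had 51.6 CPM in naive, 87.6 CPM at 24 h and 58.4 CPM at 3 d, from 401, 239 and 585 UMIs. It was the highest of the 10 ratios at 24 h, with a log2 ratio of 0.76 (0.53 to 1.00), or 1.70-fold. Tlr7 had 186, 271 and 217 CPM, a log2 ratio at 24 h of 0.54 (0.41 to 0.67). For both receptors the 24 h library was the highest of the 3. Cd14 followed the same order with 233, 334 and 241 CPM and a log2 ratio at 24 h of 0.52 (0.40 to 0.63). Myd88, to which these receptors couple, had 26.3, 36.3 and 25.6 CPM, and its ratio at 24 h, 0.47 (0.11 to 0.82), rests on 204 and 99 UMIs. Tlr4 had the smallest ratio of these 5 genes in all microglia, 0.22 (0.02 to 0.42).

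Among the inflammasome genes, the sensor gene Nlrp3 had 101 CPM in naive, 112 CPM at 24 h and 97.8 CPM at 3 d, and its log2 ratio at 24 h was 0.15 (-0.04 to 0.35). Casp1 had 37.4, 43.6 and 37.6 CPM, with a ratio of 0.22 (-0.10 to 0.53) at 24 h. Casp4 had 64.6, 71.1 and 68.7 CPM, with a ratio of 0.14 (-0.11 to 0.38). For these 3 genes no difference was detectable at this depth. Gsdmd had 55.2, 55.4 and 58.1 CPM in both clusters together. Pycard, the adaptor of the inflammasome, was the single gene below naive at 24 h: 266, 237 and 256 CPM, a log2 ratio of -0.17 (-0.30 to -0.04). Its sign was not fixed, since the ratio ranged from -0.24 to 0.28 over 19 alternative settings.

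At 3 d the levels in microglia lay close to naive. Of the 10 genes 0 were at least 2-fold higher, against 1.71% of 12507 genes, and 0 were at least 2-fold lower, against 0.959%. Their median log2 ratio was 0.02, beside 0.06 for all genes. Tlr7 had the highest ratio, 0.22 (0.12 to 0.31), followed by Tlr2 at 0.18 (-0.01 to 0.37), and Tlr4 had the lowest, -0.10 (-0.25 to 0.04). Both times share the naive library, so the 3 d library was also set directly against the 24 h library. In that comparison 8 of the 10 ratios lay below 0, with a median of -0.27 beside 0.01 for all genes. The share of all genes below 0 is not given, so that count is not read as a result. Among the 10 genes the lowest were Tlr2 at -0.58 (-0.80 to -0.36), Myd88 at -0.51 (-0.85 to -0.16) and Cd14 at -0.47 (-0.58 to -0.36).

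Microglia fell into 2 clusters. Cluster 0 held 854, 203 and 906 cells in naive, 24 h and 3 d. Cluster 7 held 120, 67 and 306 cells, or 12.3%, 24.8% and 25.2% of the microglia, and its leading genes were Cxcl10, Ccl12, Tnf and Ccl2. Since each class sum joins both clusters, their mixture moves with the condition, and its part in the ratios above was not separated beyond the values that follow.

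In cluster 0, Tlr2 was level at 44.8 CPM in naive, 47.4 CPM at 24 h and 44.9 CPM at 3 d, a log2 ratio at 24 h of 0.08 (-0.28 to 0.43). In cluster 7 it had 95.03, 174 and 91.4 CPM, a log2 ratio at 24 h of 0.87 (0.50 to 1.25). At 24 h 5 of its 67 cells held 65 of the 151 Tlr2 UMIs, and without the 5 cells with the most Tlr2 in each library, chosen after seeing the data, the level was 78.3, 116 and 72.9 CPM, a ratio of 0.57. Cd14 had 222, 244 and 220 CPM in cluster 0 and 305, 525 and 291 CPM in cluster 7, where its ratio at 24 h was 0.78 (0.58 to 0.99), or 0.64 without its 5 highest cells in each library. In cluster 0 the ratios of both genes at 24 h were small, 0.08 for Tlr2 and 0.14 (-0.02 to 0.29) for Cd14. Tlr7 was higher at 24 h in both clusters, by 0.61 (0.46 to 0.76) in cluster 0, from 187 to 285 CPM, and by 0.40 (0.11 to 0.69) in cluster 7, from 183 to 241 CPM. Tlr4 had a ratio of 0.21 (-0.02 to 0.44) in cluster 0 and of 0.55 (0.08 to 1.03) in cluster 7. The difference in response between the clusters was not tested.

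Casp4 in cluster 7 was lower in both TIA libraries, and Nlrp3 at 3 d. Casp4 had 185 CPM there in naive, 124 CPM at 24 h and 133 CPM at 3 d, with log2 ratios of -0.58 (-0.93 to -0.23) and -0.48 (-0.73 to -0.23), while cluster 0 held 45.7, 46.3 and 42.5 CPM. Without the 5 cells with the most of a gene in each library, the cluster 7 ratios at 24 h were -1.21 for Casp4 (65.7 against 152 CPM, past 2-fold) and -0.69 for Nlrp3 (96.7 against 156 CPM). Leaving out 5 cells takes a larger part of the 67 cells at 24 h than of the 120 in naive. For Casp4 they held 56 of 108 UMIs at 24 h and 45 of 195 in naive, and the part of this in the lower ratio was not tested. Nlrp3 had 187, 154 and 145 CPM in cluster 7, with ratios of -0.28 (-0.61 to 0.04) at 24 h and -0.36 (-0.61 to -0.11) at 3 d, and 86.9, 92.1 and 78.3 CPM in cluster 0. In both clusters, then, neither inflammasome gene lay clearly above naive. Pycard was lower at 24 h in cluster 0, at -0.23 (-0.38 to -0.08), and near naive in cluster 7, at 0.07 (-0.20 to 0.34). Gsdmd in cluster 7 had 58.0, 40.2 and 60.5 CPM, a ratio at 24 h of -0.53 (-1.17 to 0.10), or -0.66 without its 5 highest cells.

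**Figure D2:**
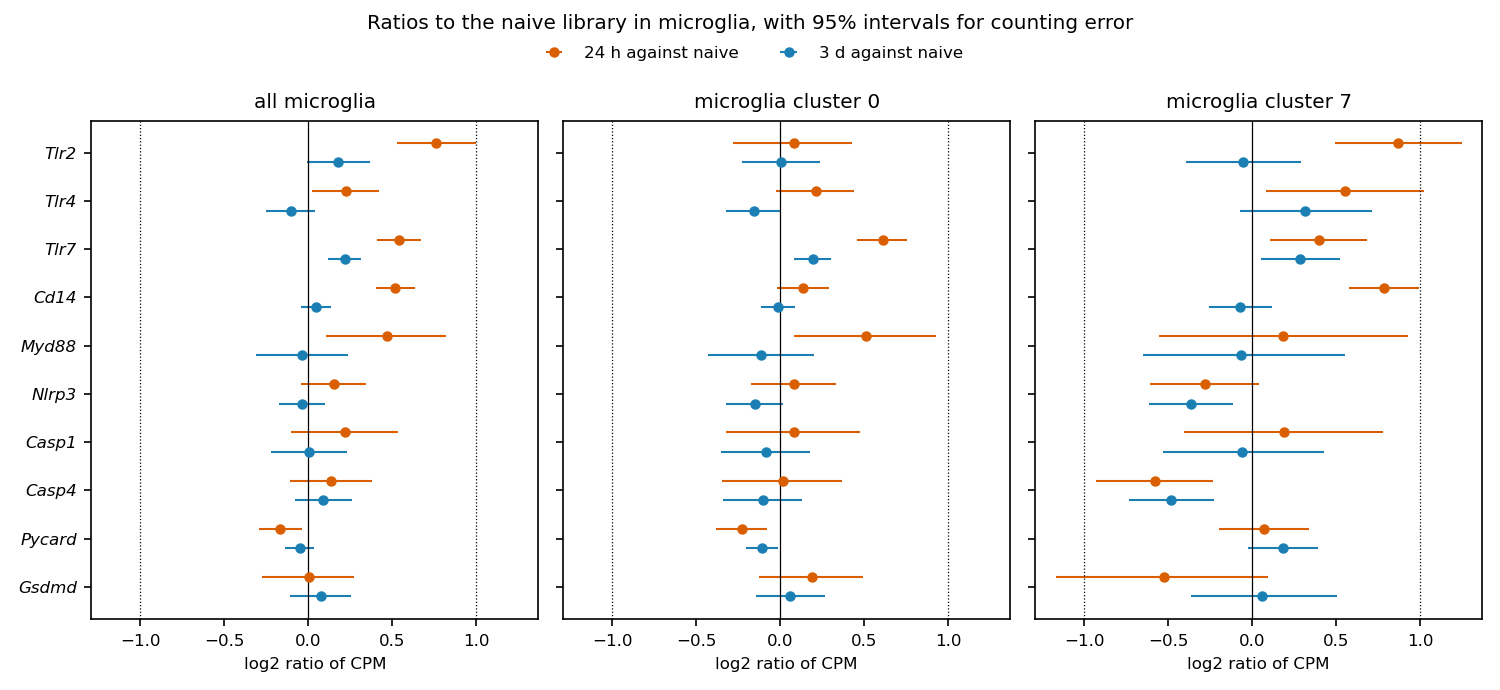
Log2 ratio of CPM to the naive library for the 10 genes at 24 h and 3 d, with 95% intervals for counting error, in all microglia, in cluster 0 and in cluster 7; dotted lines mark 2-fold. In cluster 7 Tlr2 stands at 0.87 and Cd14 at 0.78 at 24 h, and Casp4 at -0.58, while in cluster 0 Tlr7 stands highest at 0.61.

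The summed levels also depended on few cells for some genes. The 5 microglia with the most Tlr2 UMIs held 5.99% of all microglial Tlr2 UMIs in naive, 27.2% at 24 h and 10.6% at 3 d. For Cd14 these shares were 4.91%, 19.4% and 5.10%, and for Tlr7 3.66%, 10.4% and 2.63%. The 24 h library has the fewest microglia, so 5 cells are a larger part of it. The 5 cells with the most Tlr2 at 24 h all lay in cluster 7, with 25, 12, 12, 8 and 8 Tlr2 UMIs and 49, 23, 15, 4 and 6 Cd14 UMIs. They were also deep, with 33550, 24073, 18445, 33554 and 18886 UMIs of all genes, against a median of 9338.5 in microglia at 24 h. A few other genes were tallied in these cells after their values were seen: Tnf had 63, 14, 10, 33 and 15 UMIs and S100a8, S100a9 and Mrc1 had 0.

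To count cells at equal depth, each cell was thinned to 2000 UMIs, which left out 12, 3 and 8 shallow microglia; before thinning their median depth was 7785.5, 9338.5 and 7666.5 UMIs. Tlr7 was then detected in 28.7% of naive microglia (Clopper-Pearson interval 25.8% to 31.7%), in 39.0% at 24 h (33.1% to 45.1%) and in 31.0% at 3 d (28.4% to 33.7%). Cd14 was detected in 35.2%, 43.4% and 36.5%. Tlr2 was detected in 10.4%, 10.1% and 9.39% of microglia, within counting error of each other. Without thinning, where depth differs between the libraries, the shares for Tlr2 were 30.1% (27.2% to 33.1%), 40.0% (34.1% to 46.1%) and 31.2% (28.6% to 33.9%). Thinned astrocytes, with median depths of 9334, 11495 and 9307 UMIs before thinning, were read for comparison. Among them Tlr7 was detected in 0.791%, 0.442% and 0.780% of cells and Cd14 in 1.24%, 0% and 0.496%. At 24 h the interval for Cd14 reaches 1.62%. The mean number of the 10 genes detected per thinned astrocyte was 0.0655, 0.0708 and 0.0482. Microglia had a mean of 1.76, 2.08 and 1.81 of the 10 genes, and 12.7%, 6.37% and 12.5% of them had none.

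The other genes of the same pathways were grouped by role. Beside the counts of each list stand the shares of all microglial genes. At 24 h 2.39% were at least 2-fold higher and 2.64% lower, and at 3 d 1.71% and 0.959%. Of the 9 other Toll-like receptors, 7 had at least 30 UMIs in microglia at each time; at 24 h 0 of these were at least 2-fold higher and 1 at least 2-fold lower, with a median log2 ratio of -0.30, and at 3 d none passed 2-fold and the median was -0.09. The gene that was 2-fold lower was Tlr5, the flagellin receptor, at -1.18 (-2.01 to -0.44). Tlr12 lay at -0.80 (-1.39 to -0.26) and Tlr13, the receptor of bacterial ribosomal RNA, at 0.57 (0.37 to 0.78), with 74.4, 111 and 69.7 CPM. Ratios at 24 h thus lay above 0 for Tlr2, Tlr7 and Tlr13, and below 0 for Tlr5 and Tlr12. Of these only Tlr5 passed 2-fold, and differences between the receptors were not tested. At 3 d Tlr5, at -0.47 (-0.88 to -0.07), and Tlr9, the receptor of CpG DNA, at -0.43 (-1.09 to 0.22), were the lowest, and Tlr8 had 0 UMIs in microglia of any library.

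Of 11 accessory proteins of the receptors 8 were measured, and none differed 2-fold at either time, with medians of -0.13 at 24 h and -0.04 at 3 d. Cd180, a Toll-like surface protein that dampens Tlr4 signalling in macrophages, was the lowest at both times, at -0.65 (-0.78 to -0.52) and -0.51 (-0.59 to -0.43), from 335 CPM in naive to 213 and 235 CPM. Unc93b1, the chaperone that brings Tlr7 to endosomes, lay at -0.26 (-0.33 to -0.18) at 24 h and 0.03 at 3 d. Slc15a4, an endolysosomal transporter needed for Tlr7 and Tlr9 signalling, was highest at both times, at 0.27 and 0.28. The higher Tlr7 at 24 h thus came without higher Unc93b1.

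Of 22 adaptors, kinases and ubiquitin ligases that act after the receptors 21 were measured, and 1 was at least 2-fold lower at 24 h and 1 at least 2-fold higher at 3 d, with medians of 0.09 and 0.11. Both calls were Irf7, the interferon regulatory factor downstream of Tlr7 and Tlr9, with 55, 2 and 149 UMIs, or log2 ratios of -3.27 (-6.35 to -1.35) and 1.07 (0.62 to 1.55). Ticam1 (TRIF), the adaptor of Tlr3 and Tlr4, at 0.48 (0.05 to 0.90), and Tirap, the bridge from Tlr2 and Tlr4 to Myd88, at 0.46 (-0.02 to 0.93), had the highest ratios at 24 h. At 3 d Tirap, at 0.34, was the next after Irf7. The scaffold gene Ikbkg stayed near naive, at -0.12 and -0.01.

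Of 10 inhibitors of Toll-like receptor signalling 9 were measured, and none differed 2-fold, with medians of 0.10 at 24 h and 0.16 at 3 d. Dok3 was highest at 24 h, at 0.61 (0.24 to 0.96), and the deubiquitinase gene Otud7b was next, at 0.31, and highest at 3 d, at 0.27. Socs1 and Cyld were lowest at 24 h, both at -0.27, and Tollip was lowest at 3 d, at -0.22. Of 20 other inflammasome sensors and parts 13 were measured at 24 h and 14 at 3 d, and none differed 2-fold, with medians of -0.18 and 0.06. Their ratios at 24 h spread to both sides, with Naip2, a partner of Nlrc4, at 0.67 (0.48 to 0.87) and the channel gene Panx1 at 0.65 (-0.07 to 1.34), against the sensor genes Nlrp1a at -0.56 (-1.02 to -0.12) and Nlrp1b at -0.41 (-0.60 to -0.23). At 3 d Casp12 was highest, at 0.72 (-0.15 to 1.64), and Nlrp1b lowest, at -0.20.

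The cytokines and effectors of inflammasomes numbered 8, of which 7 were measured, and 0 differed 2-fold at 24 h and 1 was at least 2-fold higher at 3 d, with medians of 0.07 and 0.13. The 1 gene was Il1b, with 46, 23 and 128 UMIs or 5.92, 8.43 and 12.8 CPM, and log2 ratios of 0.51 (-0.28 to 1.26) and 1.11 (0.61 to 1.63). Il18, the other cytokine that Casp1 matures, was nearly level at 90.6, 92.1 and 102 CPM, as was Il1a at 229, 240 and 211 CPM. Ninj1, which ruptures the plasma membrane after Gsdmd pores have formed, lay at 0.54 (0.32 to 0.77) at 24 h, while the gasdermin gene Gsdme lay at -0.39 (-0.75 to -0.03).

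Some of the genes that Toll-like receptor signalling is known to induce stood out at 24 h. Of 19 such genes 11 were measured. Those with too few UMIs included Nos2, Ptgs2 and Ccl5, with 1 UMI each at 24 h, and Cd40, with 2. Cxcl1, Acod1 and Ifnb1 had 0 UMIs at 24 h, and Il12b had 11. At least 2-fold higher were 5, against 2.39% of all genes, and at least 2-fold lower were 0, against 2.64%. Their median log2 ratio was 0.67 beside 0.05 for all genes. The cytokine gene Tnf had 43.8 CPM in naive, 187 CPM at 24 h and 49.8 CPM at 3 d, a log2 ratio of 2.09 (1.89 to 2.30) at 24 h. Nfkbia, the inhibitor that NF-kappaB itself induces, lay at 1.26 (1.16 to 1.36), and the chemokine genes Ccl3 at 1.12 (1.04 to 1.19) and Ccl2 at 1.09 (0.88 to 1.29). Cxcl2 had 5, 35 and 5 UMIs, a ratio of 4.32 (2.96 to 6.03), with 13 of the 35 in 1 cell. With 5 naive UMIs Cxcl2 reached the minimum number of UMIs for a comparison through the 24 h library, where it was higher. Its call is therefore no support for the count of genes at least 2-fold higher. The 5 microglia highest for Tlr2 at 24 h held 135 of 509 Tnf, 116 of 353 Ccl2 and 14 of 35 Cxcl2 UMIs. With such cells left out of each library, chosen after seeing the data, the 24 h ratios were 1.72 (1.504 to 1.94) for Tnf, 1.19 (1.08 to 1.29) for Nfkbia, 1.04 (0.96 to 1.12) for Ccl3 and 0.58 (0.35 to 0.81) for Ccl2, the last under 2-fold, and Cxcl2, with too few UMIs left for a call, was at 3.64 (2.19 to 5.40). Il6 and Cxcl10 were the lowest of the list at 24 h, at -0.30 (-0.96 to 0.32) and -0.09 (-0.48 to 0.30).

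At 3 d 2 of 11 measured genes of that list were at least 2-fold higher, against 1.71% of all genes. At least 2-fold lower were 0, against 0.959%, and the median was 0.19. The chemokine gene Cxcl10 had 29.2, 27.5 and 61.4 CPM, a ratio at 3 d of 1.07 (0.85 to 1.30), and Il12b had 0, 11 and 40 UMIs, a log2 ratio of at least 3.37 against a floor of 3 UMIs in the naive library. With 0 naive UMIs Il12b reached the minimum number of UMIs for a comparison through the 3 d library alone. Its call is therefore no support for the count of genes at least 2-fold higher at 3 d. Tnf at 3 d lay at 0.19 (-0.02 to 0.39) and Ccl4 at -0.23 (-0.27 to -0.18). So Tnf, Ccl2, Ccl3 and Cxcl2 were highest at 24 h, and Cxcl10, Il1b and Irf7 at 3 d. Tnf, Ccl2 and Cxcl10 are also among the leading genes of microglia cluster 7, whose share of microglia was higher in both TIA libraries, and the part of that share in these ratios was not tested.

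Tissue digestion and sorting are known to induce immediate early genes, so 20 of these were read in the same cells. At 24 h 1 of 20 was at least 2-fold higher and 0 lower, with a median of 0.17, and at 3 d 0 of 20 passed 2-fold, with a median of 0.24. The gene past 2-fold was Ier3, at 1.02 (0.86 to 1.18), a known NF-kappaB target, followed by Dusp1 at 0.63. The heat shock genes Hspa1a and Hspa1b were lower at both times, at -0.63 and -0.50 and then at -0.35 and -0.27, and Egr1 and Nr4a1 were highest at 3 d, at 0.53 and 0.51. Their part in the ratios of the 10 genes was not tested. Nor was the part of digestion in the ratios of the Toll-like receptor induced genes, such as Tnf, Ccl3 and Nfkbia. The study's methods name no inhibitor of transcription for this digestion.

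**Figure D3:**
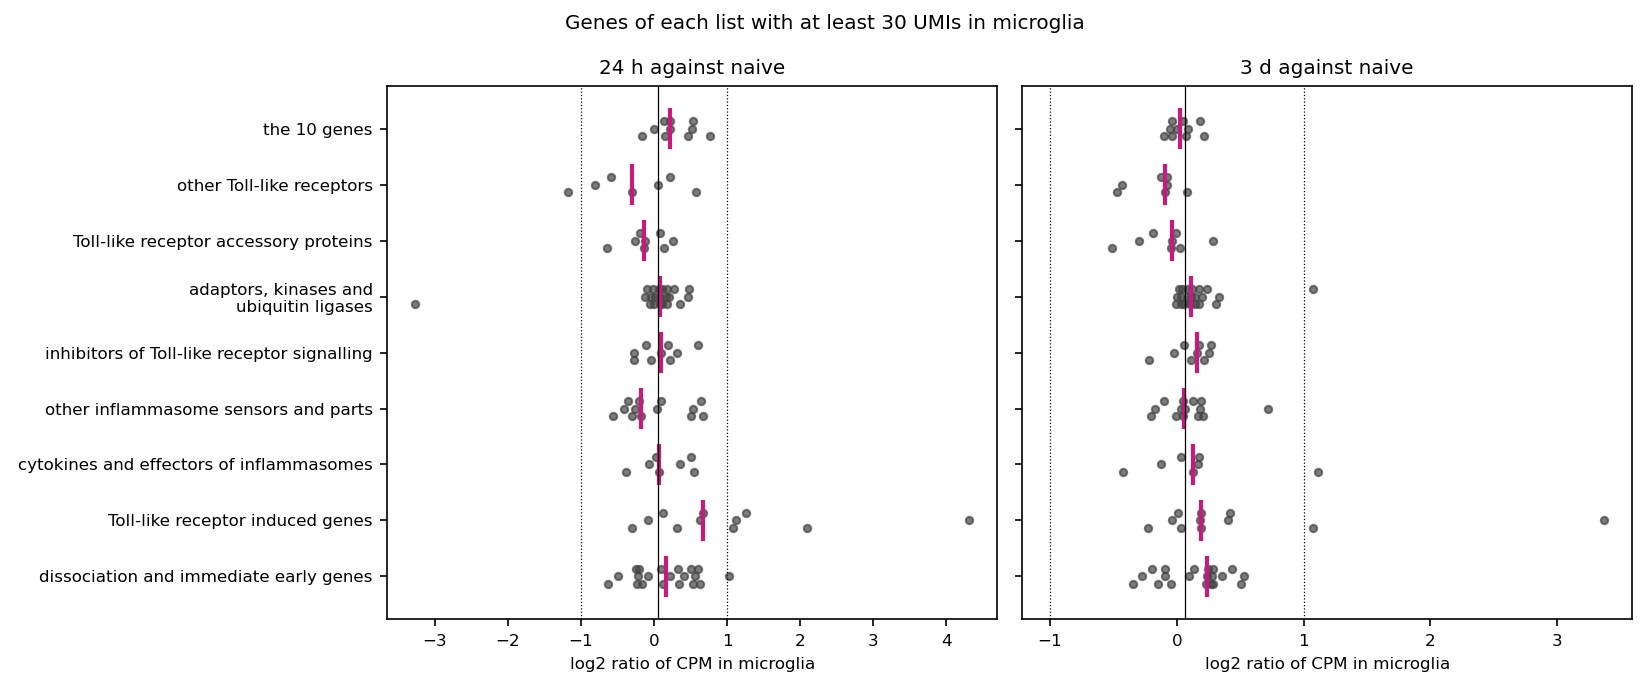
Log2 ratio of CPM in microglia at 24 h (left) and 3 d (right) against naive, 1 point for each gene with at least 30 UMIs, by list; the coloured bar is the median of a list, the solid line the median of all genes, dotted lines mark 2-fold, and Il12b at 3 d is drawn at its lower bound of 3.37. The Toll-like receptor induced genes have the highest median at 24 h, at 0.67, beside 0.22 for the 10 genes.

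Marker genes of other blood and border cells were also summed in microglia. Of the 9 markers of border-associated macrophages 9, 4 and 9 had UMIs in naive, 24 h and 3 d, with a summed level of 23.2, 20.9 and 18.7 CPM, mostly Mrc1; at 24 h Cd163, F13a1, Ms4a7, Cbr2 and Clec12a were at 0. Of the 7 monocyte markers 5, 5 and 7 had UMIs, with 17.2, 17.6 and 17.4 CPM; Ly6c2 and Chil3 were at 0 in naive and at 24 h, and the most abundant gene was Plac8 in naive and at 3 d and Fn1 at 24 h. Of the 8 neutrophil markers 4, 3 and 6 had UMIs, with 396, 393 and 438 CPM, nearly all from Csf3r, at 395, 392 and 431 CPM; S100a8 was at 0 at 24 h, and Ly6g and Mmp9 were at 0 throughout. In cluster 7 alone the border-associated macrophage sum was 61.8, 10.3 and 19.6 CPM, the monocyte sum 67.5, 43.7 and 37.1 CPM and the neutrophil sum 331, 237 and 389 CPM. The part of these cells in the ratios of the 10 genes was not tested. Markers of dendritic cells had 101, 14 and 73 UMIs (4, 3 and 4 of 6 genes, mostly Zbtb46), those of T and NK cells 3, 1 and 5 UMIs (3, 1 and 2 of 8 genes), and those of B cells summed to 207, 163 and 196 CPM (4, 3 and 5 of 5 genes), mostly Ighm.

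RNA of the other brain cells in microglia did move. The 5 erythroid markers summed to 1281, 20.2 and 106 CPM, led by Hbb-bs, so that haemoglobin RNA in microglia was far higher in naive. This did not hold in every class. In pericytes they summed to 163, 52.2 and 7960 CPM, and in the cluster with macrophage markers to 65.9, 10.3 and 1270 CPM. In astrocytes naive was again the highest, at 812, 23.9 and 669 CPM. Oligodendrocyte markers summed to 232, 114 and 177 CPM (8 of 8 genes), astrocyte markers to 428, 496 and 560 CPM (9 of 9, Slc1a3), endothelial markers to 42.3, 34.1 and 71.3 CPM (Pecam1) and neuronal markers to 36.4, 11.7 and 13.7 CPM (Stmn2). Markers of neural progenitors summed to 18.9, 16.5 and 10.7 CPM, of pericytes to 12.6, 16.1 and 17.5 CPM (Vtn), and each of the lists for oligodendrocyte precursors, smooth muscle, fibroblasts, ependymal cells and choroid plexus to at most 5.20 CPM in any library. Their part in the ratios of the 10 genes was not tested. The microglial markers themselves were lower after TIA, by a log2 ratio of their sum of -0.29 at 24 h and -0.20 at 3 d.

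The cluster with macrophage markers was mixed. It held 103, 34 and 167 cells with a median of 20768, 16845 and 27541 UMIs. Its leading genes were F13a1, Pf4, Wfdc17, H2-Eb1, H2-Aa, Mrc1, Ms4a7, Cd74, H2-Ab1 and Lyve1. Cd14 had 198 CPM in naive, 353 CPM at 24 h and 214 CPM at 3 d, a log2 ratio at 24 h of 0.84 (0.61 to 1.06), and Tlr7 had 174, 297 and 217 CPM, a ratio of 0.78 (0.53 to 1.02). Tlr2 differed in its time course, with 40.2, 44.1 and 58.0 CPM and a ratio of 0.53 (0.21 to 0.86) at 3 d. The ratios of the other 7 genes lay between -0.21 and 0.47 at 24 h and between -0.19 and 0.36 at 3 d. Its border-associated macrophage markers summed to 847, 2012 and 256 CPM and its neutrophil markers to 1377, 493 and 5128 CPM; the part of this mixture in the ratios was not tested. When the cluster was clustered again, 155 and 62 of its cells came out as microglia of high depth and 87 cells (38, 16 and 33 in naive, 24 h and 3 d) stayed unnamed, led by Ngp, S100a8, S100a9 and Chil3 together with F13a1. In the 16 unnamed cells at 24 h Cd14 had 517 CPM, against 220 in naive and 183 at 3 d, and Nlrp3 had 183 CPM, against 89.3 and 82.7, while Tlr7 had 208 CPM against 182 and 193, a ratio at 24 h of 0.19 (-0.30 to 0.65). In the 155 deep microglia, 12 of them at 24 h, Tlr7 had 171, 383 and 226 CPM, a ratio at 24 h of 1.17 (0.81 to 1.51), and Cd14 a ratio of 0.10 (-0.38 to 0.55). In the 62 deep microglia (8, 6 and 48 in naive, 24 h and 3 d) Casp4 had 8.01, 20.9 and 57.2 CPM. Its ratio there at 3 d was 2.84 (0.33 to 8.15), from 1 UMI in naive and 104 at 3 d.

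Outside microglia, the counts of the 10 genes were set beside a reference, called the microglial ratio. For it, the microglial marker UMIs in each class and library were multiplied by the ratio of each gene to those markers in the microglia of the same library. Pericytes held 11, 27 and 34 Tlr4 UMIs, where that ratio gives 1.24, 1.71 and 7.22. They held 17, 15 and 14 Myd88 UMIs, where it gives 0.358, 0.584 and 2.18. Endothelial cells held 24, 25 and 53 Gsdmd UMIs, where it gives 2.87, 1.31 and 9.47, and 17, 10 and 26 Myd88 UMIs, where it gives 1.37, 0.860 and 4.17. In these cases the exact interval of the count lay above the microglial ratio in all 3 libraries. Over 150 values (10 genes, 5 classes, 3 libraries) 43 lay above it, 13 below it and 94 within the interval. The same share over all genes is not given, so these counts are not read as a result about the 10 genes. The reference assumes that free RNA holds these genes in the microglial proportion. The part of carried-over microglial RNA in these counts was not tested.

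In endothelial cells Casp4 was higher in both TIA libraries. It had 9 UMIs or 6.46 CPM in naive, 21 UMIs or 16.4 CPM at 24 h and 43 UMIs or 15.7 CPM at 3 d, in 287, 229 and 591 endothelial cells. Its log2 ratio was 1.34 (0.16 to 2.65) at 24 h and 1.28 (0.23 to 2.50) at 3 d. Both ratios share the 9 naive UMIs, and the 3 d library set directly against 24 h gave -0.06 (-0.85 to 0.77). It was the 1 of 3 genes with at least 30 endothelial UMIs that was at least 2-fold higher at 24 h, where 2.48% of 8723 genes were, and the 1 of 6 at 3 d, where 3.53% of 9999 genes were. With 9 naive UMIs Casp4 reached that minimum through the TIA libraries, where it was higher. Neither count is therefore support for the difference. The microglial ratio gives 3.36, 1.69 and 11.2 Casp4 UMIs in endothelial cells, and the 10 microglial markers there summed to 904, 367 and 1251 CPM, with Olfml3 at 0 at 24 h. The part of carried-over microglial RNA in the Casp4 ratios was not tested. The 24 h ratio, from 30 UMIs in all, was just under 2-fold in 1 of 16 alternatives (0.999 at a clustering resolution of 1), and the 3 d ratio was under 2-fold in 4 of 16, the lowest 0.90. At equal depth of 2000 UMIs Casp4 was detected in 2 of 270, 8 of 221 and 17 of 555 endothelial cells.

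Endothelial Tlr7 had 3, 0 and 25 UMIs, too few to be compared, where the microglial ratio gives 9.70, 6.43 and 35.3. Gsdmd, the target of the Casp4 protein, had 17.2, 19.5 and 19.4 CPM, a log2 ratio of 0.18 (-0.69 to 1.05) at 24 h. Pycard had 20.1, 7.02 and 22.6 CPM, a ratio of -1.52 (-2.78 to -0.39) at 24 h and 0.17 (-0.49 to 0.87) at 3 d; the part of carried-over microglial RNA was not tested. Nlrp3 and Casp1 had 0 UMIs in endothelial cells at 24 h, where 3 UMIs would be 2.34 CPM, and 14 and 7 UMIs at 3 d, where the microglial ratio gives 15.9 and 6.12. For endothelial Tlr7, Nlrp3 and Casp1 the exact interval of the count did not lie above that ratio in any library. In pericytes Tlr4 had ratios of 0.81 (-0.25 to 1.97) and 0.59 (-0.43 to 1.72), not detectable as a difference at this depth. At 3 d Myd88 in pericytes had 9.39 CPM against 23.5 in naive, a ratio of -1.32 (-2.45 to -0.21) from 14 and 17 UMIs, and Pycard 18.1 against 6.91 CPM, a ratio of 1.39 (-0.01 to 3.12) from 27 and 5 UMIs, where the microglial ratio gives 21.9 and 3.62. The microglial markers in pericytes summed to 456, 314 and 1204 CPM and the astrocyte markers to 754, 162 and 1717 CPM. Erythroid markers summed to 163, 52.2 and 7960 CPM there, and neuronal markers to 153, 11.8 and 20.8 CPM. The part of these markers in the pericyte ratios was not tested.

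Neural and glial classes had low levels. In neuron-like cells Pycard alone was well above the microglial ratio in all 3 libraries, with 109, 18 and 60 UMIs where it gives 43.9, 2.01 and 23.1, or 18.6, 17.6 and 17.7 CPM. Astrocytes held 58, 7 and 53 Tlr7 UMIs, where the microglial ratio gives 56.2, 13.1 and 82.4, so that Tlr7 there was at or below it. Astrocytic Pycard had 11.1, 16.2 and 8.99 CPM, with 46 UMIs at 24 h where the ratio gives 11.4. Oligodendrocytes had at most 12.3 CPM of any of the 10 genes, the level of Pycard at 3 d, from 43 UMIs where the ratio gives 28.1. Against 18 UMIs in naive, where it gives 16.2, this was a log2 ratio of 1.18 (0.35 to 2.06). At 24 h Tlr4, Tlr7 and Cd14 in astrocytes and Cd14 in neuron-like cells had log2 ratios to naive of -1.08 (-2.37 to -0.001), -1.41 (-2.78 to -0.27), -3.19 (-6.27 to -1.27) and -2.48 (-7.83 to 0.10), from 8, 7, 2 and 1 UMIs at 24 h. Of the 5 genes measured in astrocytes, Myd88 and Pycard lay above naive, at 0.82 (-0.28 to 1.86) and 0.54 (0.002 to 1.06). The share of all genes with such ratios is not given for these classes. The part of carried-over microglial RNA in these ratios was not tested. Microglial markers summed to 683, 164 and 561 CPM in neuron-like cells, with Fcrls at 0 at 24 h, to 820, 336 and 566 CPM in astrocytes, and to 448, 424 and 662 CPM in oligodendrocytes; apart from Fcrls all 10 had UMIs in these 3 classes.

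The positions of the genes, from GENCODE on GRCm38, show 2 of the 10 as neighbours. Casp1 (ENSMUSG00000025888, chr9:5298517-5307265) and Casp4 (ENSMUSG00000033538, chr9:5308828-5336783) lie next to each other on the plus strand. Tlr2 (ENSMUSG00000027995) lies at chr3:83836272-83841767 on the minus strand and Tlr7 (ENSMUSG00000044583) at chrX:167304929-167330558, also on the minus strand. Myd88 (ENSMUSG00000032508, chr9:119335934-119341411) overlaps Slc22a14 on its own strand and Acaa1a on the other, and Pycard overlaps Gm45205 on the other strand, so UMIs counted for these 2 genes are less certain. Despite their closeness, Casp1 had 1, 0 and 7 endothelial UMIs where Casp4 had 9, 21 and 43.

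Since several of the genes that were higher are known NF-kappaB targets, the promoter windows of RefSeq on GRCm38.p6 (250 bases before to 50 after the start of a gene) were searched on both strands for the NF-kappaB consensus. Of the 10 genes 6 matched an entry, with 8 windows; Tlr4, Tlr7, Cd14 and Gsdmd did not. The consensus was in 4 of the 8 windows, those of Tlr2, Casp4 (2 windows that overlap and hold the same matches) and Nlrp3 (1 of 2), or in 3 of 6 genes, and in 2779 of all 32851 windows, or 8.46%. The windows of Tlr2, with the highest ratio in microglia at 24 h (chr3:83841559-83841858, minus strand), and of Casp4, the endothelial gene above (chr9:5308599-5308898, plus strand), are printed 5′ to 3′ with matches in capitals. Each holds 2 matching stretches, and a match is a description of the letters only.
Tlr2: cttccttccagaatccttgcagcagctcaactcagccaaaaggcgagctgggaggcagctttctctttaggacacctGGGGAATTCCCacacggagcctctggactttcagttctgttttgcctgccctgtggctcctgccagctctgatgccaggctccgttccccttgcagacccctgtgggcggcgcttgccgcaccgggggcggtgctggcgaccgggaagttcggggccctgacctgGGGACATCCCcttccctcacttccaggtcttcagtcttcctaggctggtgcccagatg
Casp4: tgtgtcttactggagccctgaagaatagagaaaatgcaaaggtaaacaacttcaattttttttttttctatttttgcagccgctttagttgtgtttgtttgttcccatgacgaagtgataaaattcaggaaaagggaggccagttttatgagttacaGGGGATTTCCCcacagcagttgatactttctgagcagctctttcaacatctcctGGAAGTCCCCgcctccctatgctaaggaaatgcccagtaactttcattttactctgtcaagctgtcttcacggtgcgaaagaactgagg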

How the data were processed

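Single-cell RNA was measured in 3 libraries (naive, 24 h and 3 d after TIA). The deposited matrices hold UMI counts that the authors made with Cell Ranger on mm10, before any filter on cell quality; the matrix headers give version 7.1.0 and the processing notes 3.1.0, and neither states whether intronic reads were counted. Cells were clustered with Seurat 5.3.0 in R 4.3.3 (genes in at least 3 cells, log-normalization, 2000 variable features, UMI number and mitochondrial share regressed out, 20 components, resolution 0.5), after the study's methods, which give no number of components and no resolution. Doublets (2.67% of kept cells by Scrublet in scanpy 1.11.5) were kept, and left out as an alternative. Sums, exact Poisson, conditional binomial and Clopper-Pearson intervals came from Python 3.11.15 with numpy 2.4.6, scipy 1.17.1 and pandas 2.3.3, and figures from matplotlib 3.10.9. The intervals were tested on simulated data.

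A gene was compared where both libraries together held at least 30 UMIs; a count of 0 against more than 3 UMIs gives a bound at a floor of 3 UMIs. With 1 library a condition, cells are not replicates, and no test between conditions was made. No paired analysis was possible. Named are all 10 genes, the genes of each pathway list that differed at least 2-fold in microglia, the 2 highest and 2 lowest ratios of each list at each time, and, for most marker lists, the most abundant gene. The genes, lists and rule were chosen with earlier results of these data known. Of the alternative settings, 14 changed filters, clustering, scaling, thresholds or the weight of cells, and 5 more were chosen after seeing the data, as was 1 for genes that the receptors induce.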

Additional observations from a re-analysis of the deposited data

Results flagged for a closer look

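In astrocytes 5 ratios of the 10 genes had the opposite sign to those in microglia, with both intervals away from 0; the differences between the classes were not tested. At 24 h the log2 ratio to naive in astrocytes was -1.08 for Tlr4 (microglia 0.22), -1.41 for Tlr7 (0.54) and -3.19 for Cd14 (0.52), from 8, 7 and 2 UMIs at 24 h. Pycard at 24 h was 0.54 in astrocytes and -0.17 in microglia. At 3 d Tlr7 was -0.80 in astrocytes and 0.22 in microglia. The 10 microglial markers in astrocytes, all with UMIs, summed to 820, 336 and 566 CPM in naive, 24 h and 3 d, or -1.29 and -0.53 as log2 ratios to naive; their part in the astrocyte ratios was not tested.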

How the results depend on the processing

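Over 19 alternatives the count of genes at least 2-fold higher in microglia at 24 h was 0 except in 2: at 1.5-fold it was 1 (Tlr2), and with cells that hold more than 1 UMI from markers of other classes left out it was 1 (Tlr7, at 1.13). The latter setting leaves 64, 20 and 65 microglia and gave no comparison with other classes; under it the median at 3 d was 0.26. The count at least 2-fold lower at 24 h was 1 (Casp4, at -1.21) in cluster 7 alone without the 5 cells highest for each gene, chosen after seeing the data, and 0 under the other alternatives; at 3 d no gene was 2-fold higher or lower under any of the 19. The median lay between 0.08 and 0.37 at 24 h and between -0.09 and 0.26 at 3 d. The genes at least 2-fold higher in microglia than in each other class numbered 9 in naive, 8 to 10 at 24 h and 10 at 3 d over 17 alternatives. Of 409 single gene values 360 stayed within their main interval, 49 moved and 0 reversed; 53 had the opposite sign. Tlr2 at 24 h ranged from 0.08 (cluster 0 alone, added after seeing the data) to 0.87 (cluster 7 alone, likewise), with 0.45 without its 5 top cells in each library and 0.49 as a mean over cells. Cd14 ranged from 0.08 to 0.78. Ratios at 24 h that changed sign were those of Pycard (-0.24 to 0.28), Nlrp3 (-0.69 to 0.55), Casp4 (-1.21 to 0.20) and Gsdmd (-0.66 to 0.19). Casp4 in endothelial cells ranged from 0.999 to 2.12 at 24 h and from 0.90 to 2.30 at 3 d over 16 alternatives, and was under 2-fold in 1 of them at 24 h (resolution 1) and in 4 at 3 d (doublets left out, resolution 1, no regression, and the 10% of cells with the highest share of markers of other classes left out). Endothelial and pericyte values rest on few UMIs, from 9 to 43 for Casp4 in endothelial cells. With the 5 microglia highest for Tlr2 left out of each library, chosen after seeing the data, Ccl2 at 24 h was at 0.58 (0.35 to 0.81), under 2-fold, and Tnf at 1.72.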
